A study of Mus musculus with 34 samples.

Results

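The nuclear-encoded genes of oxidative phosphorylation (OXPHOS) were examined in the kidneys of 34 mice. They were chosen by symbol, as every gene named *Nduf* followed by a, b, c, s or v and a number, *Sdha* to *Sdhd*, and every gene whose name begins with *Uqcr*, *Cox4* to *Cox8* or *Atp5*. This rule, which uses names and no measured value, found 84 of the 23509 genes in the count tables. Of these, 35 belong to complex I, 4 to complex II, 8 to complex III, 20 to complex IV and 15 to complex V, and 2 (*Atp5s* and *Atp5sl*) carry the name without being subunits of the ATP synthase. *Ndufa4* and its paralog *Ndufa4l2* were counted with complex IV, where the *Ndufa4* protein resides.

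Complexes I and II pass electrons from NADH and succinate to coenzyme Q, complex III passes them on to cytochrome c and complex IV to oxygen, and the proton gradient built by complexes I, III and IV drives ATP synthesis by complex V. All subunits except a small number encoded by mitochondrial DNA are transcribed in the nucleus and imported. In the kidney the reabsorptive tubules, above all the proximal tubule and the thick ascending limb, are densely packed with mitochondria because they depend on this pathway to pump ions.

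All mice had the C57BL6 background, and kidneys were collected on postnatal day 28 (P28). UNT mice (n = 12) carried no transgene and received no treatment. Both other groups were *Pkd2*-KO mice, in which floxed *Pkd2* is deleted by a Pkhd1/cre transgene active in kidney tubules, which causes rapid cyst growth. They were injected subcutaneously on P10, P11, P12 and P19 with PBS (n = 11) or with 20 mg per kg of RGLS4326 (n = 11), a short modified oligonucleotide that binds the seed of the microRNA miR-17. The comparison of PBS with UNT therefore joins the genotype with the injections, whereas by design RGLS4326 and PBS differ by the oligonucleotide alone. Their libraries were not alike in depth, with a median of 25551168 reads in genes for RGLS4326 and 33573702 for PBS, and overlapping ranges. Some of these libraries also differed in how many reads fell outside genes, as given below. Whole kidneys were sequenced, so that fewer cells of a type and less RNA per cell cannot be told apart in any value below.

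The libraries held 17603122 to 54981992 reads in genes. The labels spell the genotype "Pdk2KO". *Pkd2* was at 220 to 338 CPM (gene counts scaled to 1e6 reads in genes, with library sizes adjusted by TMM factors) in UNT and at 98.0 to 215 CPM in PBS-treated mice, and *Pdk2* at 217 to 365 and 86.8 to 152 CPM, so both were lower in every PBS-treated mouse. Library numbers in the names of the count tables formed 3 series, which defined 3 library sets with mice of every group in each. What the sets stand for is not stated in the labels. Reads in no gene made up 9.84% to 11.35% of UNT, 5.18% to 9.0% of PBS and 4.94% to 12.01% of RGLS4326 libraries, and reads with no unique alignment 22.84% to 25.65%, 14.81% to 19.38% and 14.75% to 19.07%. The part of these shares in the differences between groups was not tested beyond the fits that hold them as covariates. Neither share overlapped between UNT and PBS libraries, so in that comparison each covariate is joined with the group.

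OXPHOS genes were lower in PBS-treated *Pkd2*-KO kidneys than in UNT kidneys across all complexes. Of 82 members with enough counts to be tested, 78 (95.1%) were lower in PBS than in UNT, 1 (*Ndufa4l2*) was higher and 3 were not called at a Benjamini-Hochberg adjusted p under 0.05 of the quasi-likelihood test of edgeR, which was run over all 15644 tested genes and is meant by adjusted p throughout. Among all tested genes, 39.0% were lower and 43.1% higher in this comparison. The median log2 fold change (log2 FC) of the members was -1.02, a change of -50.8%, beside 0.04 over all tested genes. With scaling by library size alone, the median of all genes moved to 0.33 and that of the members to -0.73. The distance between them was -1.06 under both scalings, which was fixed beforehand because a change of scaling shifts all genes nearly alike. Splitting all called genes, 6095 were lower and 6746 higher with TMM factors, against 4099 lower and 8970 higher with library size alone, and the members moved from 78 lower and 1 higher to 76 lower and 3 higher.

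The levels of single mice followed the same pattern. Summed over the tested subunits, OXPHOS genes reached 25720 to 31320 CPM (median 28434) in UNT, 11297 to 18129 CPM (median 12725) in PBS-treated and 10611 to 15447 CPM (median 13899) in RGLS4326-treated mice. No mouse of either *Pkd2*-KO group reached the lowest UNT mouse. The mean of the PBS group was 48.4% and that of the RGLS4326 group 46.9% of the UNT mean. PBS-treated mouse 9 stood above the other PBS-treated mice, of which the next highest was at 15031 CPM, and it was the highest PBS-treated mouse for 65 of the 82 tested members. RGLS4326-treated mouse 7 was the lowest of its group for 58 members.

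All PBS-treated mice lay below all UNT mice for 52 of the 82 members, where 19.8% of all tested genes showed such a separation. Without PBS-treated mouse 9 the count was 72 members, beside 21.7% of all genes. With library size alone it was 33, beside 11.3% of all genes. The separation covered 23 of 35 members of complex I, 4 of 4 of complex II, 5 of 8 of complex III, 8 of 18 of complex IV and 10 of 15 of complex V. The reverse separation was seen for no member and for 22.7% of all genes.

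**Figure D1:**
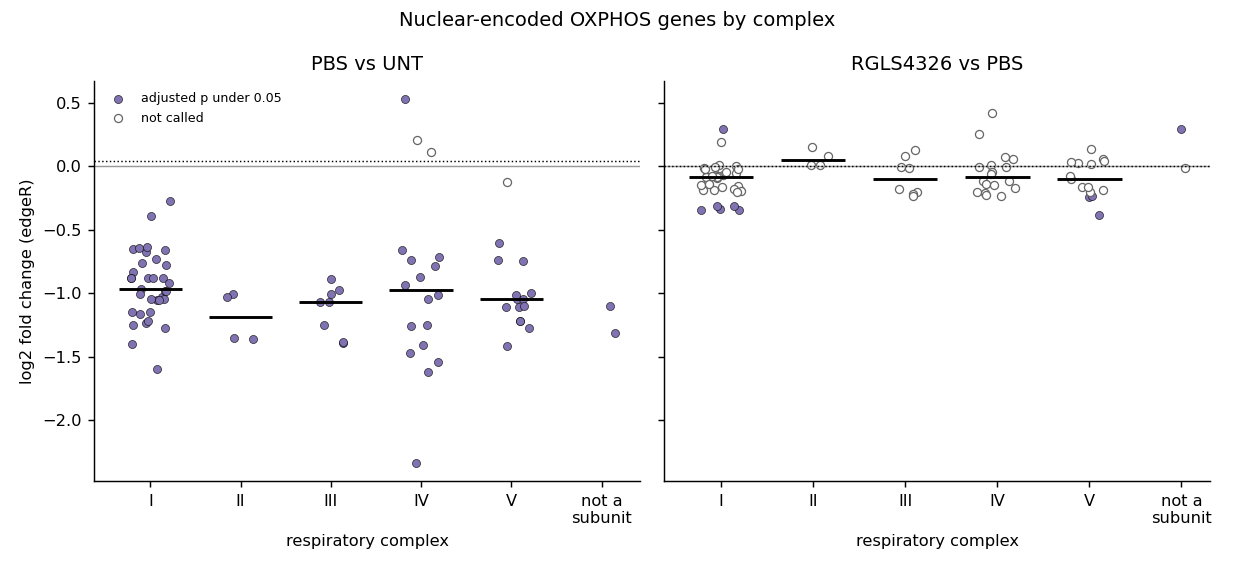
Log2 fold change (edgeR, y axis) of each tested OXPHOS gene in PBS vs UNT and RGLS4326 vs PBS, grouped by respiratory complex (x axis). Filled points passed an adjusted p under 0.05, open points did not, black lines mark the median of each complex, and the dotted line that of all tested genes. The medians of the complexes lie between -1.19 and -0.96 in PBS vs UNT and near 0 in RGLS4326 vs PBS.

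Complex I, the NADH dehydrogenase, had all 35 members lower in PBS than in UNT, with log2 fold changes from -1.59 to -0.27 and a median of -0.96. *Ndufs1*, the iron-sulfur subunit of the NADH-oxidizing module (N-module, chr1:63143596-63176833, minus strand, of GRCm38 as all positions here), had the largest decrease among them. It ranged from 364 to 584 CPM (median 429) in UNT and from 114 to 184 CPM (median 136) in PBS-treated mice, with no overlap between the groups, a log2 FC of -1.59 (SE 0.09, adjusted p = 1.4e-18). At the other end stood *Ndufa7*, an accessory subunit of the same module, at 94.7 to 151 CPM (median 124) in UNT and 76.9 to 177 CPM (median 93.3) in PBS-treated mice. Its groups overlapped and its log2 fold change was -0.27 (SE 0.10, adjusted p = 0.014). With library size alone the value for *Ndufa7* was 0.02 and in library set 3 alone 0.09, neither of which was called.

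The core subunits that bind the cofactors and the quinone differed less from each other than these extremes. *Ndufv1*, which binds FMN and takes up electrons from NADH, ranged from 285 to 340 CPM (median 315) in UNT and from 134 to 174 CPM (median 147) in PBS-treated mice, a log2 FC of -1.04 (SE 0.06). *Ndufs3*, a core subunit of the quinone module, stood at -1.01 (SE 0.06), and *Ndufa9*, an accessory subunit of that module, at -1.17 (SE 0.07). For these 3 genes no PBS-treated mouse reached the lowest UNT mouse. By module, the median log2 fold change was -0.88 over 9 members of the N-module, -1.03 over 6 of the quinone module and -0.94 over 10 of the distal membrane arm, to which *Ndufb8* (-0.88, SE 0.08) belongs.

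Complex II, the succinate dehydrogenase, is also an enzyme of the citric acid cycle and is the sole complex encoded wholly in the nucleus. All 4 genes were lower, with a median of -1.19. *Sdha*, the flavoprotein (chr13:74322254-74350280, minus strand), fell from 927 to 1218 CPM (median 1015) in UNT to 342 to 488 CPM (median 401) in PBS-treated mice, a log2 FC of -1.35 (SE 0.07, adjusted p = 9.8e-19). *Sdhb*, the iron-sulfur subunit, had a log2 FC of -1.36 (SE 0.08), and the membrane anchors *Sdhc* and *Sdhd* had -1.0 (SE 0.07) and -1.03 (SE 0.08). The groups overlapped for none of the 4 genes.

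Complex III, the cytochrome bc1 complex, had 8 of 8 members lower with a median of -1.07. The lowest was *Uqcrb*, which takes part in quinone binding, at 248 to 479 CPM (median 311) in UNT and 101 to 188 CPM (median 113) in PBS-treated mice, a log2 FC of -1.39 (SE 0.10, adjusted p = 1.3e-15). *Uqcrfs1*, the Rieske iron-sulfur protein, was close to it with -1.38 (SE 0.07), and the core proteins *Uqcrc1* and *Uqcrc2* had -1.07 (SE 0.07) and -1.25 (SE 0.07). The least decrease was that of *Uqcrh*, the hinge protein, at 340 to 470 CPM (median 420) in UNT and 174 to 395 CPM (median 202) in PBS-treated mice, a log2 FC of -0.88 (SE 0.10). Its groups overlapped through PBS-treated mouse 9.

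Complex V, the ATP synthase, held the members with the most reads. *Atp5b* and *Atp5a1*, which encode the catalytic head subunits beta and alpha, made up 22.0% of the members' summed CPM in UNT, 21.6% in PBS-treated and 22.9% in RGLS4326-treated mice. *Atp5b* (chr10:128083273-128090391, plus strand) ranged from 3290 to 3886 CPM (median 3585) in UNT and from 1439 to 2012 CPM (median 1648) in PBS-treated mice, a log2 FC of -1.05 (SE 0.08, adjusted p = 4.7e-15). *Atp5a1* and *Atp5c1*, the gamma subunit of the rotor, both had -1.11 (SE 0.07). In all 3 the groups did not overlap.

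The remaining parts of the enzyme spread more widely. *Atp5f1*, which in the symbols used here is subunit b of the peripheral stalk, had the lowest value of the complex, with 600 to 858 CPM (median 665) in UNT and 184 to 299 CPM (median 266) in PBS-treated mice, a log2 FC of -1.41 (SE 0.08, adjusted p = 4.4e-18). *Atp5o*, the stalk subunit that joins the head, had -0.74 (SE 0.09). Of 15 members, 14 were lower, with a median of -1.05. The exception was *Atp5g2*, 1 of 3 genes that encode the same mature subunit c of the membrane ring, at 44.9 to 63.7 CPM (median 57.1) in UNT and 42.3 to 76.1 CPM (median 50.5) in PBS-treated mice, a log2 FC of -0.12 (SE 0.08, adjusted p = 0.17). *Atp5g2* was called as lower without PBS-treated mouse 9 (-0.22), in sets 1 and 2 alone (-0.35 and -0.26) and with either covariate (-0.52 for reads in no gene, -0.49 for not uniquely aligned reads), and it was above 0 but not called with library size alone (0.17) and in set 3 (0.11).

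Complex IV, the cytochrome c oxidase, was the least uniform. Of 18 tested members, 15 were lower, 1 was higher and 2 were not called, with a median of -0.98. *Cox7b2* and *Cox8c*, whose expression is known from testis, had at most 2 and 1 counts in any library and were not tested. Among the ubiquitous subunits, *Cox4i1* ranged from 691 to 919 CPM (median 812) in UNT and from 384 to 767 CPM (median 456) in PBS-treated mice, a log2 FC of -0.74 (SE 0.10, adjusted p = 1.4e-08). *Cox5a* and *Cox5b* had -1.02 (SE 0.09) and -0.94 (SE 0.08). *Ndufa4* was at 419 to 607 CPM (median 520) in UNT and 169 to 328 CPM (median 204) in PBS-treated mice, -1.25 (SE 0.09). *Cox7a2l*, which was named after its values were seen, is known for a role in joining complexes III and IV and was at 141 to 177 CPM (median 154) in UNT and 146 to 246 CPM (median 158) in PBS-treated mice, with a log2 FC of 0.11 (SE 0.07, adjusted p = 0.12). With library size alone it was called as higher in PBS vs UNT (0.41, adjusted p = 9e-07) and in RGLS4326 vs UNT (0.27, adjusted p = 0.00039).

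**Figure D2:**
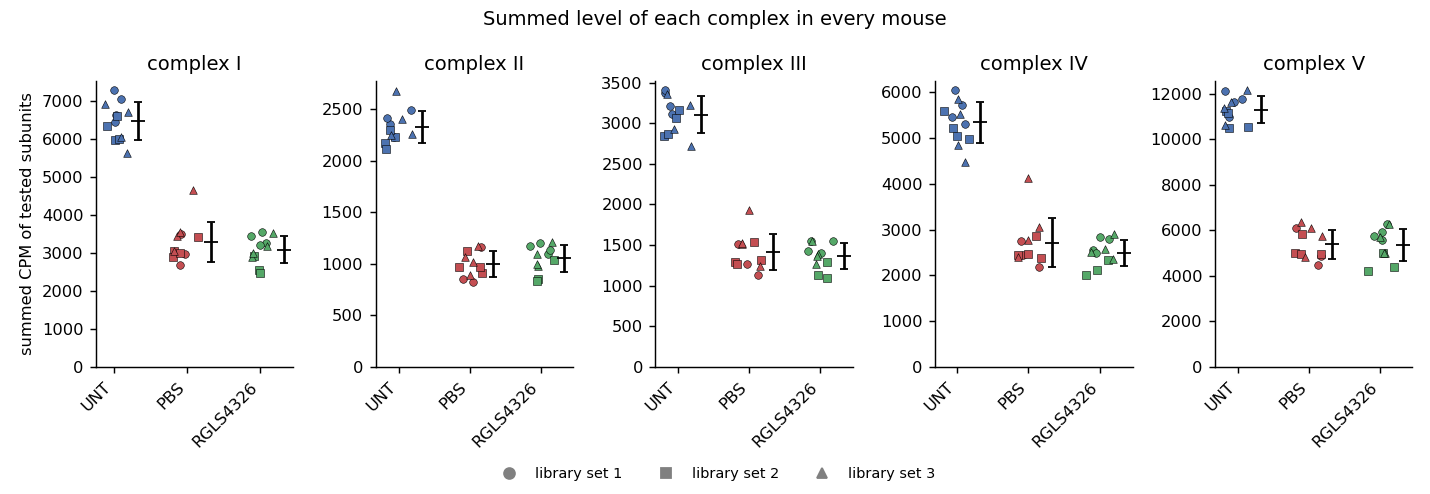
Summed CPM (y axis, from 0) of the tested subunits of each complex in each mouse, by group (x axis), with the mean and SD beside the points and a marker shape for each library set. For every complex all mice of both *Pkd2*-KO groups lie below the UNT mice, and the highest PBS-treated mouse is mouse 9 except in complex II.

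Because levels of different genes can be set side by side only per length, CPM were also divided by the kilobases of annotated exon (RPKM). On this scale *Cox8a* stood highest in UNT kidneys with a mean of 969 RPKM, followed by *Atp5a1* with 873, *Atp5b* with 842, *Cox6a1* with 643 and *Cox6b1* with 533 RPKM. The same genes led in PBS-treated kidneys at lower levels, *Cox8a* with 529, *Atp5b* with 407 and *Atp5a1* with 405 RPKM. This order rests on the length used, since with the longest transcript as length *Atp5b* led with 1861 RPKM in UNT and *Cox8a* had 1091.

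Several subunits exist as a common form and a form restricted to certain tissues, and the balance within such pairs was measured as the log2 ratio of their counts in each mouse, which does not depend on the scaling of libraries. The 7 pairs and both comparisons gave 14 permutation tests (two-sided, 100000 resamples), whose p-values were adjusted together. The balance moved in the disease comparison for 4 of them and in the treatment comparison for 3.

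*Ndufa4l2* (chr10:127514967-127517154, plus strand), a paralog of *Ndufa4* known to be induced by hypoxia, was the sole member called as higher in PBS than in UNT. It ranged from 3.47 to 8.04 CPM (median 6.27) in UNT, from 6.56 to 11.8 CPM (median 9.34) in PBS-treated and from 6.66 to 10.8 CPM (median 9.08) in RGLS4326-treated mice, so that the groups overlapped, and its log2 fold change in PBS vs UNT was 0.53 (SE 0.12, adjusted p = 0.0001). In library set 2 alone the value was 0.05 (adjusted p = 0.78), with the covariate for reads in no gene 0.19 (adjusted p = 0.3), and with that for not uniquely aligned reads -0.19 (adjusted p = 0.57). Neither share overlaps between UNT and PBS libraries, as given above. The exons of *Ndufa4l2* overlap those of *Shmt2* on the opposite strand, and its counts are uncertain because the strand setting of the counting was not stated. Relative to *Ndufa4* the ratio was 1.81 higher on the log2 scale in PBS-treated than in UNT mice (permutation test, adjusted p = 0.00014). *Ndufa4l2* made up 0.57% to 1.75% of the pair's counts in UNT and 2.62% to 5.09% in PBS-treated mice, with no overlap. The ratio did not differ detectably between RGLS4326 and PBS, with a difference of -0.07 (permutation test, adjusted p = 0.644).

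*Cox6b2*, a form of subunit VIb known from testis, was not called in PBS vs UNT, with 6.08 to 14.4 CPM (median 9.54) in UNT, 8.04 to 18.5 CPM (median 11.3) in PBS-treated mice and a log2 FC of 0.20 (SE 0.14, adjusted p = 0.17). It was called as higher with library size alone (0.49, adjusted p = 0.0026) and in set 3 (0.65, adjusted p = 0.031), and was at -0.15 in set 1. The common form *Cox6b1* had -0.71 (SE 0.09). The log2 ratio of the pair was therefore 0.97 higher in PBS-treated mice (permutation test, adjusted p = 0.00014), again with no overlap, and *Cox6b2* held a median of 2.54% of the pair's counts in UNT, 4.79% in PBS-treated and 4.83% in RGLS4326-treated mice.

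The forms known from heart and skeletal muscle went the other way or with their partners. *Cox6a2* (chr7:128205435-128206387, minus strand) had the largest decrease of all members, from 0.685 to 2.59 CPM (median 1.49) in UNT to 0.0718 to 0.615 CPM (median 0.255) in PBS-treated mice, a log2 FC of -2.34 (SE 0.30, adjusted p = 9.4e-09), with counts of 15 to 114 in UNT and 3 to 24 in PBS libraries. Its ratio to *Cox6a1* was lower in PBS-treated mice by a log2 difference of -1.54 (permutation test, adjusted p = 0.00112). *Cox6a2* overlaps exons of *Itgad* on the opposite strand and is uncertain in the same way. The defining skeletal muscle markers *Myh4* and *Ckm* were at or below 0.214 CPM in every library, and the summed level of the 6 muscle markers was 0.481 to 1.88 CPM in UNT, 1.35 to 4.18 CPM in PBS-treated and 1.04 to 1.97 CPM in RGLS4326-treated mice. Only 3 of them had enough counts to be tested. Of these, 2 were higher (log2 FC up to 2.73) and 1 lower (-1.51) in PBS than in UNT, and 1 was lower in RGLS4326 than in PBS.

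*Cox7a1* and *Cox8b*, forms of heart, muscle and brown fat, fell with their common partners. *Cox7a1* was at 10.2 to 21.3 CPM (median 18.1) in UNT and 3.73 to 10.9 CPM (median 5.96) in PBS-treated mice, -1.41 (SE 0.15). *Cox8b* was at 1.55 to 12.7 CPM (median 8.81) in UNT and 1.27 to 5.17 CPM (median 2.83) in PBS-treated mice, -1.47 (SE 0.29). The call of *Cox8b* was lost in set 3 (-1.08, adjusted p = 0.065) and with the covariate for not uniquely aligned reads (-1.48, adjusted p = 0.076). The ratios of *Cox7a1* to *Cox7a2* and of *Cox8b* to *Cox8a* differed by -0.15 and -0.45 (permutation tests, adjusted p = 0.305 for both), which did not pass the threshold over all mice. *Ucp1*, the defining gene of brown adipocytes, was at 6.31 to 95.3 CPM in UNT, 0.679 to 30.5 CPM in PBS-treated and 3.70 to 50.3 CPM in RGLS4326-treated mice, and all 3 brown adipocyte markers together at 11.9 to 127, 4.48 to 39.2 and 9.21 to 71.99 CPM, of which both tested ones (*Ucp1* and *Cidea*) were lower in PBS than in UNT. The 5 general adipocyte markers went the other way, with 4 higher in PBS than in UNT and summed levels of 16.9 to 179 CPM in UNT, 102 to 432 CPM in PBS-treated and 58.0 to 166 CPM in RGLS4326-treated mice, and 3 of them were lower in RGLS4326 than in PBS.

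Since *Ucp1* varied so widely, its log2 CPM was set against that of both genes within each group, a choice made after the values were seen. Across the 12 UNT mice, *Cox8b* followed *Ucp1* with a Pearson's r of 0.963 (permutation test, adjusted p = 0.00048 over 6 relations) and a Spearman's rho of 0.839 (adjusted p = 0.00828), and r was 0.939 without the 2 mice farthest from the median. For *Cox7a1* r was 0.828 (adjusted p = 0.0112), rho 0.748 (adjusted p = 0.022) and r without the 2 mice 0.889. Among PBS-treated mice r was 0.691 for *Cox8b* (adjusted p = 0.0405) with a rho of 0.636 (adjusted p = 0.0836), and 0.464 for *Cox7a1* (adjusted p = 0.18, rho 0.445, adjusted p = 0.263). Among RGLS4326-treated mice r was 0.760 for *Cox8b* (adjusted p = 0.0702, rho 0.345, adjusted p = 0.356), which fell to 0.222 without the 2 farthest mice, and 0.444 for *Cox7a1* (adjusted p = 0.21, rho 0.136, adjusted p = 0.693). The part of brown fat in the levels of these 2 genes was not tested further.

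The 3 genes of subunit c changed unequally in PBS vs UNT. *Atp5g3* had a log2 FC of -1.22 (SE 0.08), *Atp5g1* -1.04 (SE 0.09) and *Atp5g2*, as given above, -0.12. As a share of their summed counts, *Atp5g2* held 3.69% to 5.01% (median 4.48%) in UNT, 6.97% to 10.8% (median 8.47%) in PBS-treated and 6.55% to 8.54% (median 7.42%) in RGLS4326-treated mice. The share in UNT did not overlap that of either other group. The log2 ratio of *Atp5g1* to *Atp5g3* was 0.17 higher in PBS than in UNT (permutation test, adjusted p = 0.0254) and lower in RGLS4326 than in PBS by a difference of -0.19 (adjusted p = 0.00525).

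**Figure D3:**
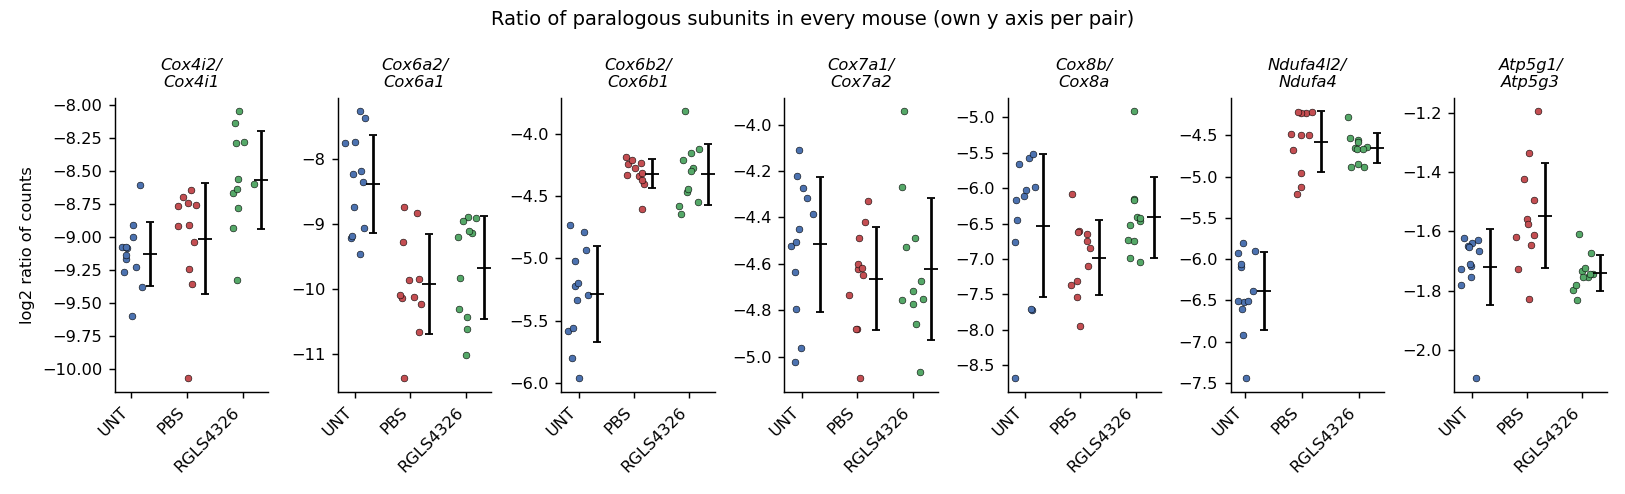
Log2 ratio of the counts of paralogous subunits (y axis, its own range for each pair) in each mouse, by group (x axis), with the mean and SD beside the points. For *Ndufa4l2*/*Ndufa4* and *Cox6b2*/*Cox6b1* all PBS-treated mice lie above all UNT mice, and for *Cox6a2*/*Cox6a1* the PBS mean of -9.93 lies below the UNT mean of -8.39.

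Sequence around the start sites, which the choice by symbol did not use, was searched for motifs of known regulators of these genes. Promoters of 66 of the 84 members were found by symbol in RefSeq (GRCm38.p6), each as 250 bases before and 50 after the start. Their median G and C content was 57.2%, beside 52.8% over the 27025 genes with promoters there, with several promoters of a gene averaged. A gene was counted as holding a motif if any of its promoters did. The motif GCGCATGC of nuclear respiratory factor 1 (NRF1) was present on either strand in 10 members (15.2%) and 3.05% of these genes, and CCGGAAG, bound by ETS factors such as GABP, in 16 (24.2%) and 9.93%. AAGATGGC, the motif of YY1, was found in 9 (13.6%) and 3.19%, and TCAAGGTCA, the motif of estrogen related receptors, in 2 (*Atp5g3* and *Sdhd*, 3.03%) and 0.466%. Any of these motifs occurred in 30 members (45.5%) and 15.3% of all genes with promoters there, so most matched members held none, and no test was made. GCGCATGC overlaps its own reverse complement GCATGCGC, and a match of letters is not a measured binding site.

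One promoter of each complex is printed to show these motifs, as the 120 bases before the start, 5′ to 3′ on the strand of the gene, with the motifs, or their reverse complements (CTTCCGG for CCGGAAG), in capitals. The windows are *Ndufa11* chr17:56717642-56717761 (plus strand), *Sdhb* chr4:140961151-140961270 (plus), *Uqcr11* chr10:80406822-80406941 (minus), *Cox6a1* chr5:115348959-115349078 (minus) and *Atp5j* chr16:84834977-84835096 (minus).
Ndufa11: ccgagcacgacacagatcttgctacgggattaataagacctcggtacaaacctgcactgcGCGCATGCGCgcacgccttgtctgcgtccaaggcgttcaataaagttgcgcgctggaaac
Sdhb: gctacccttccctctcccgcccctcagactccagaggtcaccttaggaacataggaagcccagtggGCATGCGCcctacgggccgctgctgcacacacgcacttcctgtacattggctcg
Uqcr11: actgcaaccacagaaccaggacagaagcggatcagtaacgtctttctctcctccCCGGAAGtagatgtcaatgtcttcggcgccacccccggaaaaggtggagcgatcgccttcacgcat
Cox6a1: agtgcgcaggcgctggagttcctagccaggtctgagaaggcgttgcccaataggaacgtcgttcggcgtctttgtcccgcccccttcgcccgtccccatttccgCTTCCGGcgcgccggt
Atp5j: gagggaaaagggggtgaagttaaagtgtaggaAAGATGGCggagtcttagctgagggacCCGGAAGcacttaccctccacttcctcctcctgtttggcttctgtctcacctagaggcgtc
*Ndufa11* and *Sdhb* hold the NRF1 motif, *Uqcr11* and *Cox6a1* the ETS motif within this stretch, and *Atp5j* both the YY1 and the ETS motif. In PBS vs UNT these 5 genes had log2 fold changes of -0.39, -1.36, -1.07, -0.79 and -1.27. That of *Ndufa11* was not called with library size alone (-0.10, adjusted p = 0.33) or in set 3 (-0.01, adjusted p = 0.96).

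To examine whether treatment moved OXPHOS genes, RGLS4326-treated were compared with PBS-treated *Pkd2*-KO kidneys. Most members did not pass the test. Of 82, 8 (9.76%) were lower, 2 were higher and 72 were not called, whereas 18.5% of all tested genes were lower and 15.3% higher. The median log2 fold change of the members was -0.08 (all tested genes 0.00), with a range from -0.38 to 0.42. Without PBS-treated mouse 9 the median was -0.0031, beside 0.01 over all genes, so most of the distance between them rested on this mouse. No member separated the groups without overlap, which 3 of the 15644 tested genes did with RGLS4326 lower and 7 with RGLS4326 higher. Of the 8 lower members, 7 were also lower in PBS than in UNT, and both comparisons use the same PBS-treated mice. In library set 3 alone *Atp5o* kept that PBS vs UNT call (-0.48, adjusted p = 0.019). *Atp5e* (-0.15), *Ndufa2* (-0.28), *Ndufa3* (-0.29), *Ndufb7* (-0.36), *Ndufa11* (-0.01) and *Ndufa7* (0.09) were not called there. With the covariate for not uniquely aligned reads *Atp5e*, *Ndufa2* and *Ndufa7* were not called in PBS vs UNT (adjusted p = 0.093, 0.067 and 0.097).

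The lower members were 5 accessory subunits of complex I (*Ndufa2*, *Ndufa3*, *Ndufa7*, *Ndufa11* and *Ndufb7*) and 3 genes of complex V (*Atp5e*, *Atp5g2* and *Atp5o*). *Atp5e*, the epsilon subunit of the head (chr2:174461072-174464105, minus strand), had the largest decrease, with 91.6 to 274 CPM (median 117) in PBS-treated and 80.1 to 122 CPM (median 103) in RGLS4326-treated mice, a log2 FC of -0.38 (SE 0.13, adjusted p = 0.022). Of the 11 treated mice, 10 were below the PBS median. The value 274 belonged to PBS-treated mouse 9, and without this mouse the log2 fold change was -0.20 (adjusted p = 0.072).

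*Ndufb7*, in the distal membrane arm, had the smallest p of the lower members, with 52.3 to 94.4 CPM (median 64.2) in PBS-treated and 41.5 to 64.7 CPM (median 52.7) in RGLS4326-treated mice, a log2 FC of -0.32 (SE 0.09, adjusted p = 0.01), and it was -0.24 (adjusted p = 0.028) without PBS-treated mouse 9. *Ndufa7* was at 76.9 to 177 CPM (median 93.3) in PBS-treated and 64.1 to 99.9 CPM (median 80.1) in RGLS4326-treated mice, -0.34 (SE 0.10, adjusted p = 0.014). *Ndufa11* and *Ndufa3*, both of the membrane arm, had -0.33 (SE 0.10, adjusted p = 0.013) and -0.34 (SE 0.11, adjusted p = 0.016). Without PBS-treated mouse 9 these 4 genes were still called but nearer to 0, with *Ndufa7* at -0.22, *Ndufa11* at -0.24 and *Ndufa3* at -0.21. *Ndufa2* (-0.31, adjusted p = 0.029), *Atp5g2* (-0.25, adjusted p = 0.028) and *Atp5o* (-0.23, adjusted p = 0.039) were not called without that mouse, at -0.17, -0.17 and -0.14 (adjusted p = 0.1, 0.077 and 0.12). *Ndufa2*, *Ndufa3* and *Ndufa11* overlap exons of *Tmco6*, *Tfpt* and *Vmac* on the opposite strand.

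Both higher members had been among the lower ones in PBS vs UNT. *Ndufs1* was at 153 to 202 CPM (median 180) in RGLS4326-treated mice against 114 to 184 CPM (median 136) in PBS-treated ones, a log2 FC of 0.29 (SE 0.09, adjusted p = 0.012). It exceeded the PBS mean in all 11 treated mice. It remained below every UNT mouse, of which the lowest was at 364 CPM. Its exons overlap those of *Eef1b2* and *Ino80dos* on the opposite strand. *Atp5s*, which is not a subunit, was at 9.18 to 15.4 CPM (median 11.1) against 7.47 to 11.8 CPM (median 9.58), 0.29 (SE 0.09, adjusted p = 0.013).

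No member of complexes II, III or IV was called by edgeR with all mice, TMM scaling and no covariate. At an unadjusted p under 0.05, 1 of complex II was higher (*Sdha*, log2 fold change 0.15, SE 0.07), 2 of complex III and 5 of complex IV were lower, where 24.4% of all genes were lower and 22.0% higher at that threshold, and DESeq2 called 0, 0 and 1 of them. With library set as a term, *Uqcrq*, *Cox4i1*, *Cox6a1* and *Cox6b1* were called as lower, upper quartile scaling and the covariate for not uniquely aligned reads each called *Cox6b1*, and some fits that left out 1 mouse called *Uqcrq*, *Cox6a1*, *Cox6b1* or *Cox8a*. Library set 2 alone also called members of complex IV as lower, among them *Cox6a1* (-0.44), *Cox6b1* (-0.40), *Cox8a* (-0.37), *Cox4i1* (-0.35) and *Cox5b* (-0.32), with adjusted p from 0.0099 to 0.035. *Uqcrq* and *Uqcrh* of complex III had -0.24 (SE 0.10, adjusted p = 0.064) and -0.22 (SE 0.10, adjusted p = 0.089), and *Cox6b1* and *Cox6a1* of complex IV -0.22 (SE 0.09, adjusted p = 0.057) and -0.21 (SE 0.09, adjusted p = 0.069). The head subunits *Atp5b* and *Atp5a1* stood at 0.02 (SE 0.08) and 0.06 (SE 0.07), with 1333 to 2122 CPM (median 1797) and 1024 to 1556 CPM (median 1376) in RGLS4326-treated mice.

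Within pairs of paralogs, the treatment comparison moved 2 ratios besides that of *Atp5g1* to *Atp5g3*. The log2 ratio of *Cox4i2*, a form known from lung, to *Cox4i1* was 0.44 higher in RGLS4326-treated mice (permutation test, adjusted p = 0.0287), with *Cox4i2* at 0.623 to 1.14 CPM (median 0.9) in PBS-treated and 0.776 to 1.43 CPM (median 1.01) in RGLS4326-treated mice. That of *Cox8b* to *Cox8a* was 0.57 higher (adjusted p = 0.0407). Neither *Cox4i2* (0.25, SE 0.13, adjusted p = 0.12) nor *Cox8b* (0.42, SE 0.30, adjusted p = 0.26) was called on its own. The call of the *Cox4i2* ratio was lost without PBS-treated mouse 9 (0.34, adjusted p = 0.0502) or 10 or RGLS4326-treated mouse 7 or 11, and that of the *Cox8b* ratio without PBS-treated mouse 2, 3, 4, 10 or 11 or RGLS4326-treated mouse 2, 3, 7, 9, 10 or 11.

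**Figure D4:**
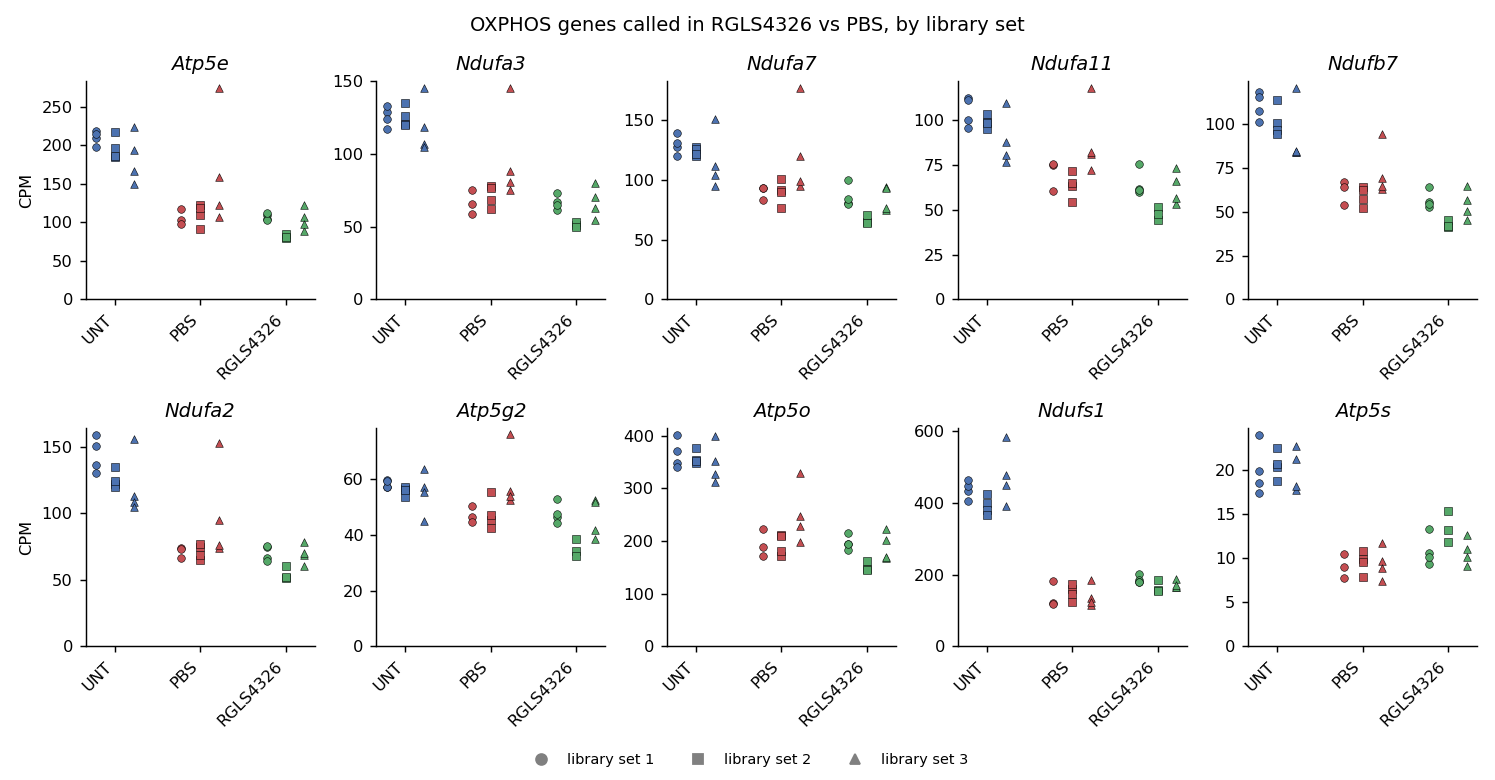
CPM (y axis, from 0) of the 10 OXPHOS genes called in RGLS4326 vs PBS in every mouse, by group (x axis), with the library sets drawn side by side as circles (set 1), squares (set 2) and triangles (set 3). For the 8 genes that decreased, the 3 RGLS4326-treated mice of set 2 are the lowest of all mice, and the highest PBS triangle is mouse 9.

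The treatment result differed between library sets. Within set 1 the median log2 fold change of the members in RGLS4326 vs PBS was 0.14 and within sets 2 and 3 it was -0.21 and -0.22. Set 2 alone gave 28 lower members (34.1%, beside 11.9% of all genes) and 1 higher. Sets 1 and 3 gave 0 called members by edgeR, where few genes were called at all (54 of 15737 in set 1 and 0 of 15676 in set 3), and at an unadjusted p under 0.05 15 members were higher in set 1 (18.3%, beside 11.3% of all genes) and 10 lower in set 3 (12.2%, beside 9.42%). Compared with the fit of all sets, the 8 lower members were farther from 0 both in set 2, with *Atp5e* at -0.42 and *Ndufa7* at -0.41, and in set 3, which holds PBS-treated mouse 9, with -0.67 and -0.53, and *Ndufs1* was at 0.42, 0.15 and 0.31 in sets 1, 2 and 3. Summed over subunits, RGLS4326-treated mice stood at 48.9%, 41.6% and 48.2% of the UNT mean in sets 1, 2 and 3, and PBS-treated mice at 43.4%, 47.9% and 53.2%.

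The share of reads in no gene also varied between groups and library sets, and its part in the treatment result was not tested beyond the fit below. In set 2 it was 11.3% to 12.0% in RGLS4326 libraries against 5.49% to 9.0% in PBS libraries, in set 1 it was 4.94% to 8.38% against 5.18% to 7.24%, and in set 3 it was 6.14% to 11.7% against 5.67% to 6.65%. With this share as a covariate 0 members were called by edgeR in either direction (12 higher, 14.6% beside 9.65% of all genes, and 0 lower, beside 10.8%, at an unadjusted p under 0.05), the median was 0.03, and of all 15644 genes 33 were called as lower (0.211%) and 56 as higher. The lower members moved towards 0, for example *Ndufa7* from -0.34 to -0.15 and *Atp5e* from -0.38 to -0.18, whereas *Ndufs1* was at 0.31 (adjusted p = 0.095) beside 0.29 without the covariate. The treatment difference of the members was also related to transcript length, with a Spearman's rho of 0.243 over the 82 members and 0.33 over 15522 genes, given as a description because genes share libraries and are not replicates. Of the 41 members with the shorter transcripts 6 were lower, and of the other 41 members 2 were lower and 2 higher.

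Direct targets of miR-17, the microRNA that RGLS4326 binds, carry matches to its seed in their 3′ untranslated regions (UTRs), so these matches were searched in the members. Mature miR-17 is shown with its seed, bases 2 to 8, in capitals.
miR-17: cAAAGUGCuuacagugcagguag
A match to these bases (GCACTTT), or to bases 2 to 7 followed by an A (CACTTTA), was present in the annotated 3′UTR of 4 of the 82 tested members (4.88%), beside 3228 of 14844 tested genes with an annotated 3′UTR (21.7%), and no member had the 8-base match GCACTTTA. The 3′UTRs of members are short, with a median of 272 bases against 1312 over all tested genes. The matches are printed with 10 bases on each side, 5′ to 3′ on the strand of the gene, with the match in capitals, from *Ndufa10* chr1:92439393-92439419 (minus strand), *Ndufb2* chr6:39602989-39603015 and chr6:39603286-39603312 (plus), *Sdhd* chr9:50597058-50597084 (minus) and *Uqcrb* chr13:66900630-66900656 (minus) of GRCm38.
Ndufa10: acccacccctGCACTTTgggtctctca
Ndufb2: agagaacagtCACTTTAaaccaaagat
Ndufb2, second: caattacataGCACTTTttggggggtt
Sdhd: cctgggtgcaGCACTTTgattgtgtgc
Uqcrb: acctatgccaCACTTTAaataaatgtc
None of these 4 genes was called in RGLS4326 vs PBS. Their log2 fold changes were -0.07 (SE 0.07, adjusted p = 0.45) for *Ndufa10*, -0.18 (SE 0.10, adjusted p = 0.14) for *Ndufb2*, 0.08 (SE 0.08, adjusted p = 0.41) for *Sdhd* and -0.01 (SE 0.10, adjusted p = 0.95) for *Uqcrb*.

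RGLS4326-treated kidneys were also compared with UNT kidneys, to measure how far OXPHOS genes stood from the untreated level. Of 82 members, 79 (96.3%) were lower in RGLS4326-treated mice, 1 (*Ndufa4l2*, 0.47, SE 0.12) was higher and 2 (*Cox6b2* and *Cox7a2l*) were not called, with a median of -1.07. Among all tested genes 36.9% were lower and 40.8% higher. Every RGLS4326-treated mouse was below every UNT mouse for 73 members, which held for 16.1% of all genes. By complex, the mean summed CPM of RGLS4326-treated mice was 47.8%, 45.3%, 44.0%, 46.8% and 47.5% of the UNT mean in complexes I to V, and that of PBS-treated mice 50.9%, 42.8%, 45.5%, 50.8% and 47.7%.

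Other nuclear genes of the pathway were read from the same fit. *Ndufab1*, *Cyc1* and *Cycs*, which encode the acyl carrier subunit of complex I, cytochrome c1 and cytochrome c, fall outside the naming rule and were all lower in PBS than in UNT, with -1.29 (SE 0.08), -1.15 (SE 0.07) and -1.48 (SE 0.11), and none was called between RGLS4326 and PBS. Of 41 tested assembly factors, 36 were lower and 1 (*Uqcc2*, 0.33) was higher, with a median of -0.57, and of 11 genes of coenzyme Q synthesis all were lower, with a median of -0.76. Of 76 mitochondrial ribosomal protein genes, which serve the translation of the mitochondrially encoded subunits, 64 were lower and 2 higher, with a median of -0.44, and of 14 genes of import and the outer membrane 13 were lower. Over all genes 39.0% were lower and 43.1% higher in this comparison. Between RGLS4326 and PBS, 28 of the 76 ribosomal protein genes (36.8%) were lower and 2 higher (median -0.16), beside 18.5% and 15.3% of all genes, and with the covariate for reads in no gene, chosen for these lists after the values were seen, 0 were called by edgeR and the median was -0.04. In the same comparison without the covariate 8 assembly factors were lower and 4 higher (median -0.02), 2 genes of coenzyme Q synthesis were lower and 1 higher (median -0.06), and 3 genes of import and the outer membrane were lower and 1 higher (median -0.07), and with it 0 of each were called. The mitochondrially encoded subunits had no row in the tables and are not analysed here.

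**Figure D5:**
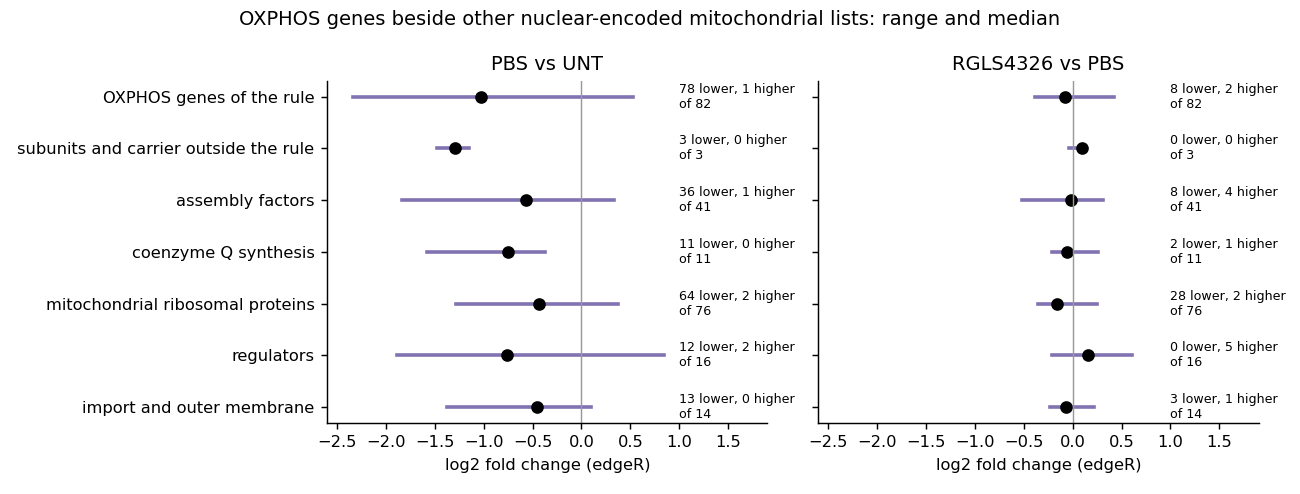
Range (bar) and median (point) of the log2 fold changes (edgeR, x axis) of the OXPHOS genes and of other lists of nuclear-encoded mitochondrial genes (y axis), for PBS vs UNT and RGLS4326 vs PBS, with the number of genes called in each direction. In PBS vs UNT every median lies below 0, and in RGLS4326 vs PBS the medians of the 16 regulators and of the 3 genes outside the naming rule lie above it.

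Among 16 regulators of mitochondrial gene expression, 12 were lower and 2 higher in PBS than in UNT. *Ppargc1a*, the coactivator PGC-1α, ranged from 109 to 211 CPM (median 148) in UNT, from 22.8 to 72.4 CPM (median 47.6) in PBS-treated and from 59.8 to 91.0 CPM (median 71.0) in RGLS4326-treated mice. It fell by 1.61 on the log2 scale in PBS vs UNT (SE 0.14, adjusted p = 5.5e-13) and was higher in RGLS4326 than in PBS (0.53, SE 0.14, adjusted p = 0.0064). *Esrra*, an estrogen related receptor that PGC-1α coactivates, had -0.95 (SE 0.08) in PBS vs UNT and -0.10 (SE 0.08, adjusted p = 0.33) in RGLS4326 vs PBS, and *Tfam*, which packages and transcribes mitochondrial DNA, -0.85 (SE 0.06) and 0.12 (SE 0.06, adjusted p = 0.11). *Nrf1* and the coactivator *Pprc1* were higher in PBS than in UNT, with 0.17 (SE 0.06) and 0.84 (SE 0.12).

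Of the 16 regulators, 5 were higher in RGLS4326 than in PBS, where 15.3% of all genes were, and none was called as lower. Besides *Ppargc1a* these were the receptors *Ppara* (0.61, SE 0.16, adjusted p = 0.0081) and *Esrrg* (0.44, SE 0.12, adjusted p = 0.0075), the ETS factor *Gabpa* (0.37, SE 0.09, adjusted p = 0.0053) and *Tfb2m*, a transcription factor of mitochondrial DNA (0.30, SE 0.08, adjusted p = 0.0068). The exons of *Gabpa* overlap those of *Atp5j* on the opposite strand, so reads of the 2 genes may have been exchanged or lost. With the covariate for reads in no gene none of the 16 was called, and the log2 FCs of *Ppara*, *Ppargc1a*, *Esrrg*, *Gabpa* and *Tfb2m* were 0.58, 0.43, 0.37, 0.22 and 0.19 (adjusted p = 0.096, 0.12, 0.13, 0.17 and 0.18). The OXPHOS genes had a median of -0.08 in the comparison without the covariate.

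Markers of kidney cell types differed between the groups along with the members. All 11 proximal tubule markers were lower in PBS than in UNT (median -2.71), with summed levels of 28937 to 40990 CPM in UNT, 1702 to 6549 CPM in PBS-treated and 3689 to 6987 CPM in RGLS4326-treated mice, and 7 of them were higher in RGLS4326 than in PBS (median 0.64). Of 6 thick ascending limb markers 5 were lower and 1 higher in PBS than in UNT, and of 4 markers of the distal convoluted tubule 4 were lower. In RGLS4326 vs PBS 3 of the former were higher and 1 lower, and 2 of the latter were higher. Collecting duct markers were mixed (4 lower and 5 higher of 9) and 3 of them were lower in RGLS4326 than in PBS. All 4 podocyte markers were lower in PBS than in UNT and higher in RGLS4326 than in PBS, and of 5 endothelial markers 3 were lower and 2 higher in PBS than in UNT and 4 higher in RGLS4326 than in PBS. All 5 fibroblast and all 5 tested macrophage markers were higher, the macrophage markers with summed levels of 77.8 to 142 CPM in UNT, 473 to 1288 CPM in PBS-treated and 414 to 827 CPM in RGLS4326-treated mice, and 3 of them were lower in RGLS4326 than in PBS. Of 8 pericyte and mural markers 5 were higher and 1 lower in PBS than in UNT, and 3 higher and 1 lower in RGLS4326 than in PBS. The part of these marker differences in the levels of OXPHOS genes was not tested.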

How the data were processed

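Kidney polyadenylated RNA of 34 mice was sequenced as stranded paired-end libraries. The authors trimmed reads with Trim Galore, mapped them with STAR to GRCm38 (mm10) and counted unique alignments with HTSeq 0.6.1, per the labels. The deposited values are raw counts per gene symbol, 1 table per mouse. The annotation and strand setting of the counting are not given in the sources used here, so the 21 members with exons that overlap another listed gene are uncertain.

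Groups came from the labels, and p-values measure the spread between mice. Counts were scaled by TMM factors and tested with the two-sided quasi-likelihood test of edgeR 4.0.16 (R 4.3.3) in 1 fit of 3 groups, after filterByExpr (15644 genes), with Benjamini-Hochberg adjustment over all of them and DESeq2 1.42.0 as an alternative. Ratios used counts plus 0.5 and permutation tests over mice (smallest possible p 2e-05). RPKM used the exon bases of GENCODE M21. The procedure was tested on simulated data. Python 3.11.15 with scipy 1.17.1 was used.

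Members, gene lists and tests were chosen with earlier results of these data known. Named genes were core subunits, paralogs, the extremes of each complex in PBS vs UNT, the 2 smallest p of each complex in RGLS4326 vs PBS, members called higher in PBS vs UNT or called in the same direction in both comparisons, and untested members. *Cox7a2l*, *Atp5s* and, of the members shown for a sequence, *Uqcr11*, *Atp5j*, *Ndufa10* and *Ndufb2* fall outside this rule and were named after their values were seen. The values of 1 core subunit that the rule names are not reported here. Same-numbered mice of different groups did not deviate together (correlations of deviations -0.33 to 0.41, median -0.02, 33 pairs), so the numbers did not pair mice.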

Additional observations from a re-analysis of the deposited data

How the results depend on the processing

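The number of members lower in PBS than in UNT was 69 to 79 and in RGLS4326 than in UNT 74 to 80 over all alternatives, and leaving out 1 mouse at a time gave 78 to 79 and 79. The number higher in PBS than in UNT was 3 with library size alone, 0 with either quality covariate or in library set 2, and 2 in set 3, and that in RGLS4326 vs UNT was 2 with library size alone and 0 with the covariate for not uniquely aligned reads or in set 2. The median in PBS vs UNT was -0.73 with library size alone and -1.26 with the covariate for reads in no gene, and that in RGLS4326 vs UNT -0.77 with library size alone and -1.28 in set 2. With library size alone, 33 members separated PBS from UNT. Leaving out 1 mouse gave 52 to 72 and, for RGLS4326 vs UNT, 73 to 75. These alternatives for separation were chosen after seeing the data.

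The treatment comparison depended on the fit. Lower members numbered 18 with library set as a term (22.0%, beside 20.7% of all genes), 28 in set 2 and 0 in sets 1 and 3 or with the covariate for reads in no gene, and leaving out 1 mouse gave 4 (without PBS-treated mouse 9) to 16 (without RGLS4326-treated mouse 4 or 8), which are 4.88% of members beside 13.2% of all genes and 19.5% beside 20.9% or 19.9%, with 5 without RGLS4326-treated mouse 5 or 7 (6.1%, beside 14.7% or 15.1%), 13 without PBS-treated mouse 3 (15.9%, beside 17.3%) and 15 without PBS-treated mouse 5 (18.3%, beside 21.2%). Higher members numbered 1 in set 2 and 0 in sets 1 and 3 or with that covariate, where *Ndufs1* was at 0.42, 0.31 and 0.31. The median was 0.030 with that covariate and 0.14 in set 1, and leaving out 1 mouse gave -0.10 to -0.0031. The cause was not tested. With a replicate block 78 members were lower in PBS vs UNT, 8 in RGLS4326 vs PBS and 79 in RGLS4326 vs UNT, and it changed no other call.

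Among named members past the threshold, these changed sign. *Ndufa4l2* was at -0.19 in PBS vs UNT and -0.26 in RGLS4326 vs UNT with the covariate for not uniquely aligned reads, and at -0.14 in RGLS4326 vs UNT in set 2. *Ndufa7* was at 0.020 with library size alone and 0.087 in set 3. In set 1, RGLS4326 vs PBS gave 0.031 for *Atp5e*, 0.026 for *Atp5g2*, 0.028 for *Atp5o* and 0.011 for *Ndufa3*. Values that were not called changed sign too, for example *Atp5g2* in PBS vs UNT (0.17 with library size alone, 0.11 in set 3), *Cox6b2* in PBS vs UNT (-0.15 in set 1), and *Atp5a1* and *Cox8b* in RGLS4326 vs PBS (-0.18 and -0.25 in set 2).

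Ratios within 1 library set rest on 3 or 4 mice a group, where an exact permutation test cannot give a p below 0.0571 (3 against 4) or 0.0286 (4 against 4). In sets 1, 2 and 3 the differences that missed the threshold were 0.080, 0.56 and 0.70 for *Cox4i2*/*Cox4i1* and 0.65, 0.13 and 0.86 for *Cox8b*/*Cox8a* in RGLS4326 vs PBS, -1.53, -1.64 and -1.40 for *Cox6a2*/*Cox6a1* in PBS vs UNT, 0.20, 0.022 and 0.30 for *Atp5g1*/*Atp5g3* in PBS vs UNT and -0.18, -0.12 and -0.29 in RGLS4326 vs PBS, and in set 1 alone 0.86 for *Cox6b2*/*Cox6b1* and 2.20 for *Ndufa4l2*/*Ndufa4*. In set 2 *Cox7a1*/*Cox7a2* (-0.34) and *Cox8b*/*Cox8a* (-0.93) passed it in PBS vs UNT (exact permutation test, p = 0.0286). Leaving out 1 mouse gave 0.34 to 0.52 for *Cox4i2*/*Cox4i1* and 0.42 to 0.66 for *Cox8b*/*Cox8a* in RGLS4326 vs PBS, and the calls were lost without 4 and 11 of the 22 mice. Members with under 10 counts in a library, such as *Cox6a2*, are limited by depth.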
